A study of Mus musculus with 14 samples.

Results

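The transcripts of 9 receptor chains for myeloid cytokines were followed across the 14 RNA-seq libraries of mouse leukemic stem cells. The chains were chosen by name as the receptor subunits for GM-CSF (Csf2ra, Csf2rb), IL-3 (Il3ra, Csf2rb2), G-CSF (Csf3r), IL-6 (Il6ra, Il6st), IL-33 (Il1rl1) and interferon gamma (Ifngr1), and all 9 were found among the 24463 gene symbols of the files. The leukemic cells were made from lineage-negative bone marrow of mice. They were grown for 48 h in IMDM with 15% fetal bovine serum, stem cell factor at 50 ng/ml and thrombopoietin at 20 ng/ml, and were given the p210 BCR-ABL retrovirus 2 times, 24 h apart. Cells that were lineage-negative, c-Kit+, Sca1+ and GFP+ were then sorted. The 5 groups were WT (wild-type control marrow, untreated, n = 3), dKO (Tcf1/Lef1-deficient marrow, untreated, n = 3), and control-marrow cells given DMSO (the solvent, n = 3), 20 µM PGE1 (n = 3) or 20 µM PGE2 (n = 2) for 6 h. Every group, the controls included, carried BCR-ABL. The sources used here do not give the alleles or any Cre line behind the Tcf1/Lef1 deficiency, nor the age and number of the mice or any pooling.

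Cytokine receptors of this kind have no enzyme of their own. A ligand-binding chain pairs with a signalling chain, and kinases of the JAK family held at their tails then phosphorylate STAT proteins, which enter the nucleus and raise genes such as those of the SOCS family that in turn dampen the receptor. Il1rl1 belongs to the IL-1 receptor family instead, and with Il1rap signals through MyD88. In mice the GM-CSF receptor uses the common beta chain Csf2rb, whereas the IL-3 receptor can use either Csf2rb or the mouse-specific beta chain Csf2rb2. BCR-ABL, the fusion kinase of chronic myeloid leukemia, drives STAT5 without a cytokine, and PGE1 and PGE2 are prostaglandins that act on receptors coupled in part to cyclic AMP.

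Both beta chains came from neighbouring genes with long identical runs, so a stretch where they are nearly alike is shown first. In the mouse GENCODE M21 transcripts the longest identical run was 242 bases. Of all 50-base windows, 18.43% in Csf2rb and 19.44% in Csf2rb2 also occurred in another gene, mostly in the partner. The stretch below, bases 2658 to 2777 of the Csf2rb-206 transcript and bases 2558 to 2677 of Csf2rb2-201, is 120 bases long and differs at 2 bases, which are in capitals.
Csf2rb: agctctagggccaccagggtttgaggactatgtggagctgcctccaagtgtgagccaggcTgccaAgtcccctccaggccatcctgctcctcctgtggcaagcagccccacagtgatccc
Csf2rb2: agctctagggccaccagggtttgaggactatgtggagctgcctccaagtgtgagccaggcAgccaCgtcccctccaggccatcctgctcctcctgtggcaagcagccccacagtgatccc
The sources used here do not say how reads from such stretches were assigned, and the values of both beta chains are uncertain to that extent. Csf3r shared 11.22% of its 50-base windows with another gene, mostly AC105061.2. The other 6 members shared at most 0.06%.

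The windows around the start sites were searched for short motifs of factors that these pathways are known to use. RefSeq windows of build GRCm38.p6, from 250 bases before to 50 bases after the start, were found for 8 of the 9 members, with 9 windows in all; Csf2rb has no entry. The motifs, searched on both strands, were the cyclic AMP response element TGACGTCA (in 1.79% of all 32851 windows of this length), its core TGACG (20.81%, which also lies inside the full element), the AP-1 site TGANTCA (7.81%), the STAT site TTCNNNGAA (8.3%), the GATA site AGATAA (11.18%) and the TCF/LEF core CTTTGA (16.0%). The 3 windows shown, 5′ to 3′ on the gene's strand with matches in capitals, hold the full cyclic AMP element (Csf2ra), the STAT site (Csf2rb2) and both a GATA site and the TGACG core (the second start of Il1rl1).
Csf2ra, chr19:61228369-61228668, minus strand: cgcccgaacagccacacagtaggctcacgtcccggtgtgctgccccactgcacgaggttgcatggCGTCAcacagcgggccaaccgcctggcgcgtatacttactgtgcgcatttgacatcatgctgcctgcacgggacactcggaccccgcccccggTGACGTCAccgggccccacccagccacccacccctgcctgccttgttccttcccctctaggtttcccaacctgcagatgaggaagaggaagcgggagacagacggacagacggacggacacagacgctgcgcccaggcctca
Csf2rb2, chr15:78305672-78305971, minus strand: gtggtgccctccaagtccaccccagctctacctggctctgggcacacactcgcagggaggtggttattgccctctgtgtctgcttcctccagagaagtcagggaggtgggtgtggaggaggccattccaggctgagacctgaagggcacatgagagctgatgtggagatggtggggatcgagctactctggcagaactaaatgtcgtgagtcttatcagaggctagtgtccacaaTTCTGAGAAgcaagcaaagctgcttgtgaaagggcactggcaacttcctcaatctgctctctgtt
Il1rl1, chr1:40439379-40439678, plus strand: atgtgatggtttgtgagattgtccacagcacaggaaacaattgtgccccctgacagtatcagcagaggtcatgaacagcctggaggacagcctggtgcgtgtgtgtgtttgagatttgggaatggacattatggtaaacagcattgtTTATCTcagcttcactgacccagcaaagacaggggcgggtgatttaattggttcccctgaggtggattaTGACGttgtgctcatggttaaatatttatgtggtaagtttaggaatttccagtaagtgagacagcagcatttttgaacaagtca
The full element of Csf2ra began at position -92 from the start site, and a further TGACG core, on the other strand, at -185. The match of Csf2rb2 read TTCTGAGAA and began at -15. In the Il1rl1 window the core lay at -34 and the GATA site at -103; the window at the other Il1rl1 start held a GATA site at -217. Il6ra had a TGACG core and a GATA site, Csf3r had a TCF/LEF core, and the windows of Ifngr1, Il6st and Il3ra held none of the 6 motifs. These matches are letters in a window and were not tested as binding sites.

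The files gave 31.3 to 33.8 M reads for each untreated library and 19.0 to 22.7 M for each treated one. Levels are in FPKM, fragments scaled to transcript length and library size, so they can be compared between genes. Replicate pairs of WT and PGE2 had a variance 1.8 to 2.76 times counting noise, while pairs with DMSO replicate 1 (12.06 and 14.2), with PGE1 replicate 2 (30.31 and 32.01) and with dKO replicate 1 (8.8 and 9.18, against 4.18 for the other pair) were the farthest within their groups. Tcf7, the gene of TCF1, was at 0.0219 to 0.142 FPKM in dKO and 1.15 to 1.48 in WT, and Lef1 was at 0.105 to 0.184 and 0.223 to 0.319. The genotype field of the labels contradicts the title of dKO replicate 1 and DMSO replicate 1; groups follow the titles, and every library outside dKO had at least 0.701 FPKM of Tcf7. The Y-linked genes Ddx3y, Eif2s3y and Uty were at 0 in all dKO libraries and were read in all others, so genotype and the sex of the mice cannot be told apart. Xist, which is transcribed in female cells, was read in every library: at 9.81 to 10.6 FPKM in WT, 12.4 to 27.6 in dKO, 9.05 to 11.2 in DMSO, 3.54 to 8.14 with PGE1 and 14.6 to 14.9 with PGE2. Eif2s3y also differed between the treated groups, at 16.2 to 16.9 FPKM in DMSO, 19.0 to 25.6 with PGE1 and 13.6 to 13.8 with PGE2. Ddx3y and Uty were likewise highest with PGE1, while their DMSO and PGE2 ranges overlapped. Whether the mix of sexes differed between the treated groups was not tested. Of the sort's markers, Kit was at 20.8 to 48.5 FPKM and Ly6a, the gene of Sca1, at 2.86 to 17.8. Slamf1, a marker of the most primitive stem cells, was at most 0.46 FPKM in any library.

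Csf2rb2 varied the most over the 5 groups and Il3ra the least. The mean of the highest group was 24.7 times that of the lowest for Csf2rb2, 8.42 times for Il1rl1, 5.54 for Csf2rb, 3.12 for Il6st, 2.99 for Il6ra, 2.57 for Csf2ra, 2.29 for Ifngr1, 2.14 for Csf3r and 1.77 for Il3ra. Both beta chains kept 1 order, dKO, WT, PGE2, DMSO and PGE1 from low to high, with no overlap between neighbouring groups. Il1rl1 followed the same order from PGE2 up, while its WT and dKO ranges overlapped. For Ifngr1 the order was DMSO, PGE2, dKO, WT and PGE1, with overlap only between dKO and WT. Csf3r was lowest with PGE1 and then DMSO, and its dKO, WT and PGE2 ranges overlapped in turn. Il6st was low in dKO and PGE1, which overlapped, and higher in WT, PGE2 and DMSO, the last pair overlapping. The share of all genes with such separated ranges was not counted. These orders also span untreated and treated libraries, which differ in depth.

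**Figure D1:**
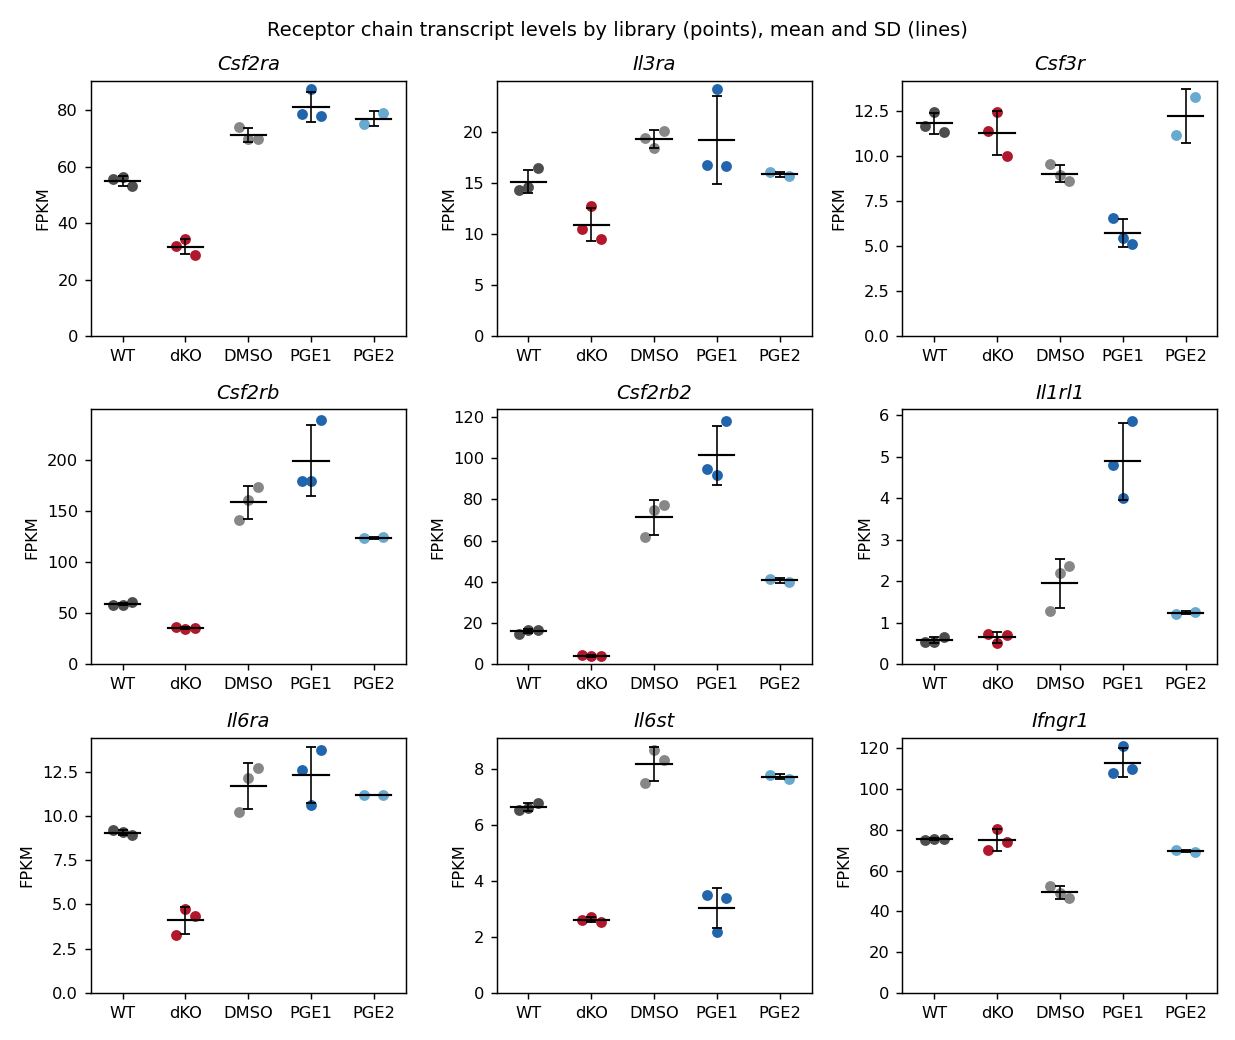
Level of each of the 9 receptor chains (FPKM, vertical axis from 0) in each library (points) of the 5 groups, with the group mean and SD as lines. The group means of Csf2rb2 run from 4.11 FPKM in dKO to 101 with PGE1, those of Il3ra from 10.9 to 19.3.

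In untreated cells, 6 of the 8 chains that could be tested were lower in dKO than in WT and 0 were higher, at the adjusted threshold or at an unadjusted p below 0.05. The chains that fell were Csf2rb2, Il6st, Il6ra, Csf2ra, Csf2rb and Il3ra, and Csf3r and Ifngr1 did not pass the test. Over all 10721 genes tested, 40.9% were called, 18% higher and 22.9% lower. Of the calls over all genes 44.1% were higher, a share that rose to 60.2% with quantile normalization, 56.1% with median-of-ratios scaling and 54.7% with a minimum of 5 FPKM, while the 6 calls among the chains held under all 13 alternatives. For Il6st this covers the 12 alternatives in which it was tested. The median log2 difference was -0.74 over the 8 chains and -0.01 over all genes. Tests were limma fits on log2(FPKM + 1) with Benjamini-Hochberg adjustment over all genes and a threshold of 0.05.

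Csf2rb2, the beta chain reserved for IL-3, was at 14.9, 16.9 and 16.6 FPKM in WT replicates 1 to 3 and at 4.41, 3.99 and 3.93 in dKO. No dKO library reached the WT range. The difference of the means was 3.92-fold (log2 difference -1.74, SE 0.06, adjusted p = 1.48e-06). Csf2rb, the common beta chain, was at 58.4, 58.2 and 60.7 FPKM in WT and 36.9, 35.1 and 35.8 in dKO, without overlap. It was 1.64-fold lower in dKO (log2 difference -0.70, SE 0.04, adjusted p = 9.04e-06).

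The alpha chains of the GM-CSF and IL-3 receptors, which bind the ligand, fell as well. Csf2ra, which binds GM-CSF, was at 55.9, 56.3 and 53.1 FPKM in WT and 31.9, 34.2 and 28.9 in dKO, again without overlap. It was 1.74-fold lower in dKO (log2 difference -0.78, SE 0.06, adjusted p = 7.07e-05). Il3ra, which binds IL-3, was at 14.3, 14.5 and 16.4 FPKM in WT and 10.5, 12.7 and 9.52 in dKO. The highest dKO library lay below the lowest WT library, and the difference was 1.38-fold (log2 difference -0.44, SE 0.10, adjusted p = 0.0103).

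Both chains of the IL-6 receptor fell. Il6ra, the IL-6 binding chain, was at 9.18, 9.07 and 8.91 FPKM in WT and 3.26, 4.73 and 4.35 in dKO, 2.20-fold lower (log2 difference -0.99, SE 0.10, adjusted p = 3.01e-04). Il6st, the gp130 chain that IL-6, IL-11, LIF and oncostatin M receptors share, was at 6.51, 6.59 and 6.79 FPKM in WT and 2.60, 2.72 and 2.52 in dKO, 2.54-fold lower (log2 difference -1.08, SE 0.05, adjusted p = 6.59e-06). No dKO library reached the WT range of either chain.

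The remaining chains showed no difference that passed a test. Csf3r, the G-CSF receptor that signals as a pair of like chains, was at 11.7, 12.5 and 11.3 FPKM in WT and 11.4, 12.5 and 10.0 in dKO, with overlapping ranges (log2 difference -0.07, 95% interval -0.24 to 0.11, adjusted p = 0.525). Ifngr1, the chain that binds interferon gamma, was at 74.9, 75.7 and 75.5 FPKM in WT and 70.0, 80.5 and 73.9 in dKO (log2 difference -0.01, 95% interval -0.13 to 0.11, adjusted p = 0.856). Il1rl1, the ST2 chain that binds IL-33, was below the minimum mean of 1 FPKM with 50 to 68 reads per library. It was at 0.539, 0.537 and 0.665 FPKM in WT and 0.738, 0.509 and 0.708 in dKO, which overlapped (exact two-sided permutation test, p = 0.4, the smallest possible with this design being 0.1).

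Markers of other cells moved with genotype. All 13 monocyte and macrophage markers in the files were lower in dKO, with a summed level of 176 to 208 FPKM against 900 to 934 in WT. Among the 13 mast cell and basophil markers, 6 of the 8 tested were lower, with summed levels of 103 to 110 and 169 to 173 FPKM. Tpsab1 was at 0 in every dKO library, but was near 0 in WT too (mean 0.0608 FPKM, lowest library 0). All 10 megakaryocyte markers were lower (75.2 to 139 FPKM in sum against 287 to 314). Of 12 neutrophil markers tested 6 were lower and 5 higher, and their summed level was higher (11066 to 11329 FPKM against 8202 to 8561). Mpo (3150 against 2499 FPKM), Elane, Prtn3 and Ctsg were the largest terms of that sum and had higher means in dKO. Other neutrophil markers had lower means, such as Ltf (3.26 against 22.4), Camp (8.27 against 49.2) and Mmp8 (2.75 against 11.9). All 7 sort markers tested were lower too, Ly6a at 3.12 against 11.3 FPKM and Kit at 23.0 against 28.0. Other lists went up or both ways. Of 5 eosinophil markers tested 2 were higher and 0 lower, and of 4 B cell markers 2 were higher and 0 lower. Of 7 erythroid markers 1 was higher and 3 were lower. In bulk RNA fewer cells of a type and less RNA per cell cannot be told apart, and the part of these markers in the receptor differences was not tested.

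Cells kept for 6 h in DMSO differed from untreated WT cells in all 9 chains: 7 were higher and 2 lower. Of 11115 genes tested 56.6% were called, 26% higher and 30.7% lower. Vehicle culture, the lower sequencing depth of the treated libraries and any difference of experiment cannot be told apart here, so these values serve as the level from which the prostaglandin comparisons start. Csf2rb2 was at 61.8, 75.0 and 77.4 FPKM in DMSO replicates 1 to 3, 4.43-fold above WT (log2 difference 2.08, SE 0.09, adjusted p = 1.12e-06). Csf2rb was at 142, 161 and 173 FPKM, 2.68-fold above WT (1.40, SE 0.07, adjusted p = 2.74e-06). Every DMSO library exceeded every WT library for both beta chains.

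Il1rl1 rose from its low WT level to 1.28, 2.20 and 2.37 FPKM (80, 145 and 147 reads), a log2 difference of 0.88 (SE 0.15, adjusted p = 0.00129), or 1.55 with a pseudocount of 0.1. The remaining increases were smaller. Csf2ra was at 74.1, 69.8 and 70.0 FPKM (1.29-fold), Il3ra at 19.4, 18.4 and 20.1 (1.28-fold), Il6ra at 10.2, 12.1 and 12.7 (1.29-fold) and Il6st at 7.49, 8.68 and 8.31 (1.23-fold), with adjusted p from 2.51e-04 to 0.00743. The Il6st call was lost when all 14 libraries were fitted together (adjusted p = 0.0576). Ifngr1 and Csf3r fell. Ifngr1 was at 52.3, 49.1 and 46.3 FPKM, 1.53-fold below WT (log2 difference -0.61, SE 0.05, adjusted p = 3.79e-05). Csf3r was at 9.54, 8.94 and 8.61 FPKM, 1.31-fold below (-0.36, SE 0.06, adjusted p = 0.00113). Markers of several cell types moved with this comparison. Of the mast cell and basophil markers 7 of 10 tested were higher and 1 lower, with a summed level of 226 to 249 FPKM against 169 to 173 in WT. All 4 eosinophil markers tested were lower (59.8 to 74.1 FPKM against 189 to 200 in sum), and of 13 neutrophil markers 7 were lower and 4 higher (5357 to 6369 against 8202 to 8561). Mpo (1331 against 2499 FPKM) and Elane (1275 against 2030) were the largest terms of the neutrophil sums. The part of the markers in these differences was not tested.

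With PGE1 for 6 h, 4 chains were higher than with DMSO (Ifngr1, Il1rl1, Csf2rb2 and Csf2ra), 2 were lower (Il6st and Csf3r) and 3 did not pass the test. Over the 11242 genes tested 49.1% were called, 23.6% higher and 25.5% lower, so a call alone was common. The median log2 difference was 0.19 over the 9 chains and 0.01 over all genes. The comparisons of PGE1 and of PGE2 with DMSO share the DMSO libraries.

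Ifngr1 showed the largest fitted increase among the 9. It was at 108, 121 and 110 FPKM with PGE1, 2.29-fold above DMSO (log2 difference 1.18, SE 0.07, adjusted p = 5.76e-06). These 3 libraries were the highest of all 14 for this gene. Il1rl1 was at 4.79, 4.01 and 5.87 FPKM, from 306, 227 and 358 reads, 2.51-fold above DMSO (1.01, SE 0.17, adjusted p = 0.00117). The log2(FPKM + 1) scale understates the change of a gene this low. Its lowest PGE1 library lay above the highest DMSO library.

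Of the beta chains, Csf2rb2 was at 94.6, 91.6 and 118 FPKM, above all DMSO libraries (1.42-fold, log2 difference 0.50, SE 0.11, adjusted p = 0.00665). Csf2rb was at 180, 179 and 239 FPKM, also above all DMSO libraries, and missed the threshold (1.26-fold, log2 difference 0.32, 95% interval 0.04 to 0.60, adjusted p = 0.0591). It passed without PGE1 replicate 1 (0.39, adjusted p = 0.0482) or without PGE1 replicate 2 (0.39, adjusted p = 0.0302). PGE1 replicate 3 was the high library, and without it the log2 difference was 0.18 (adjusted p = 0.152); without DMSO replicate 1 it was 0.24 (adjusted p = 0.181). Csf2ra was at 78.7, 87.5 and 77.9 FPKM (1.14-fold, log2 difference 0.19, SE 0.07, adjusted p = 0.0442), and this call was lost in 8 of 16 alternatives, adjusted p rising to 0.0505 without DMSO replicate 1, 0.134 without DMSO replicate 2, 0.127 without DMSO replicate 3, 0.0669 without PGE1 replicate 2 and 0.075 without either PGE2 library. Il3ra, at 16.8, 24.2 and 16.6 FPKM, did not pass the test (log2 difference -0.03, 95% interval -0.32 to 0.27, adjusted p = 0.876). PGE1 replicate 2 was the high library; without it Il3ra was lower with PGE1 (log2 difference -0.20, adjusted p = 0.0206).

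The IL-6 receptor chains went apart. Il6st was at 3.48, 2.19 and 3.39 FPKM with PGE1, 2.70-fold below DMSO and below every DMSO library (log2 difference -1.20, SE 0.13, adjusted p = 1.17e-04). Il6ra was at 12.6, 10.6 and 13.7 FPKM, overlapping DMSO (log2 difference 0.07, 95% interval -0.17 to 0.30, adjusted p = 0.626). Csf3r was at 6.58, 5.45 and 5.11 FPKM, 1.58-fold below DMSO without overlap (-0.58, SE 0.10, adjusted p = 0.00148).

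Markers of several cell types moved with PGE1. Of the 10 mast cell and basophil markers tested 7 were higher and 1 lower, with a summed level of 309 to 394 FPKM against 226 to 249. Mcpt4 (means of 0 FPKM in DMSO and 0.0794 with PGE1) and Tpsab1 (0.0899 and 0.0926) were near 0 in both groups. Of the 13 neutrophil markers tested 10 were lower (1943 to 2976 FPKM against 5357 to 6369), and all 4 eosinophil markers tested were lower (0.466 to 23.9 FPKM against 59.8 to 74.1), with Epx, Prg3 and Ear1 at 0 in at least 1 PGE1 library. Of 13 monocyte and macrophage markers 9 were lower and 2 higher, at summed levels that overlapped (861 to 1096 FPKM and 885 to 1032). That overlap rested on Cd14, the higher of the 2 in level: without it the sums were 606 to 756 FPKM with PGE1 and 838 to 985 with DMSO. Of 10 megakaryocyte markers 4 were higher and 2 lower, of 7 erythroid markers 3 and 3, and of 7 sort markers 3 and 1. The T and NK cell markers summed to 2.14 to 3.43 FPKM with PGE1 and 1.38 to 1.73 with DMSO. Only 1 of them was high enough to be tested, and 0 were called. The part of these markers in the receptor differences was not tested.

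With PGE2 at the same dose and time, 1 chain was higher than with DMSO (Ifngr1), 1 was lower (Csf2rb2) and 7 did not pass the test. Over all genes 5.57% were called, 0.996% higher and 4.57% lower. Ifngr1 was at 69.9 and 69.1 FPKM, above all DMSO libraries (1.41-fold, log2 difference 0.49, SE 0.08, adjusted p = 0.00911). Csf2rb2 was at 41.7 and 39.8 FPKM, below all DMSO libraries (1.75-fold lower, log2 difference -0.79, SE 0.13, adjusted p = 0.00994). Either call was lost without either PGE2 library, at adjusted p 0.115 and 0.109 for Ifngr1 and 0.0869 and 0.121 for Csf2rb2, and the Ifngr1 call also without DMSO replicate 3 (0.0508).

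For the other 7 chains the intervals bound the difference. Csf3r was at 11.2 and 13.3 FPKM, above all DMSO libraries (log2 difference 0.40, 95% interval 0.14 to 0.65, adjusted p = 0.0833), and passed without PGE1 replicate 1 (0.0467) or with all 14 libraries in 1 fit (0.0316). Csf2rb, at 123 and 124 FPKM, lay below all DMSO libraries (-0.35, interval -0.66 to -0.03, adjusted p = 0.195). Il1rl1, at 1.22 and 1.27 FPKM from 77 and 70 reads, lay just below the lowest DMSO library (-0.37, interval -0.80 to 0.05, adjusted p = 0.297), and was lower when DMSO replicate 1 and PGE1 replicate 2 were both left out (-0.55, adjusted p = 0.0223). Il3ra was at 16.0 and 15.7 FPKM (-0.27, interval -0.60 to 0.06, adjusted p = 0.333) and was lower without PGE1 replicate 2, which contributes to the shared spread (adjusted p = 0.0252). Csf2ra was at 75.1 and 79.1 FPKM (0.11, interval -0.06 to 0.28), Il6ra at 11.2 in both libraries (-0.05, interval -0.32 to 0.21) and Il6st at 7.78 and 7.65 (-0.07, interval -0.40 to 0.26). Of the 10 mast cell and basophil markers tested 0 were called by limma and 4 had an unadjusted p below 0.05, with a summed level of 214 to 217 FPKM. The summed level of neutrophil markers (7832 to 7934 FPKM, against 5357 to 6369) was above that of DMSO, with 1 of 13 called higher and 0 lower. The sum of monocyte and macrophage markers (1172 to 1180, against 885 to 1032) was also above DMSO, with 2 of 13 called higher and 1 lower. Their part was not tested.

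PGE1 and PGE2 were the 1 pair of related compounds that could be compared at a matched dose and time. PGE2 carries a further carbon-carbon double bond that PGE1 lacks. Between them 4 chains were higher with PGE1, 2 were lower and 3 did not pass the test. Over all genes 53.9% were called, 27.2% higher and 26.7% lower. The chains higher with PGE1 were Il1rl1 (3.93-fold, log2 difference 1.38, SE 0.19, adjusted p = 3.44e-04), Csf2rb2 (2.49-fold, 1.29, SE 0.13, adjusted p = 7.34e-05), Ifngr1 (1.62-fold, 0.69, SE 0.08, adjusted p = 1.42e-04) and Csf2rb (1.61-fold, 0.67, SE 0.14, adjusted p = 0.00341). The chains lower with PGE1 were Il6st (2.56-fold, -1.13, SE 0.15, adjusted p = 2.57e-04) and Csf3r (2.14-fold, -0.98, SE 0.11, adjusted p = 1.47e-04). In none of these 6 did the PGE1 and PGE2 libraries overlap, but the share of all genes without overlap was not counted.

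For the alpha chains the pair was not shown to differ, which does not show that they act alike. The intervals of the log2 difference were -0.09 to 0.24 for Csf2ra, -0.15 to 0.39 for Il6ra and -0.09 to 0.57 for Il3ra. Csf2ra and Il6ra overlapped between the compounds, whereas every PGE1 value of Il3ra lay above both PGE2 values; without PGE1 replicate 2 its log2 difference was 0.07 (adjusted p = 0.364). Quantile normalization alone brought Csf2ra past the threshold (log2 difference 0.19, adjusted p = 0.00908), and Il6ra passed when DMSO replicate 1 and PGE1 replicate 2 were both left out (0.22, adjusted p = 0.0215). Mast cell and basophil markers moved with this comparison as well, 7 of 10 tested being higher with PGE1 and 1 lower. Lower with PGE1 were 11 of 13 neutrophil, 10 of 13 monocyte and macrophage (1 was higher) and 4 of 4 eosinophil markers. Their part was not tested.

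**Figure D2:**
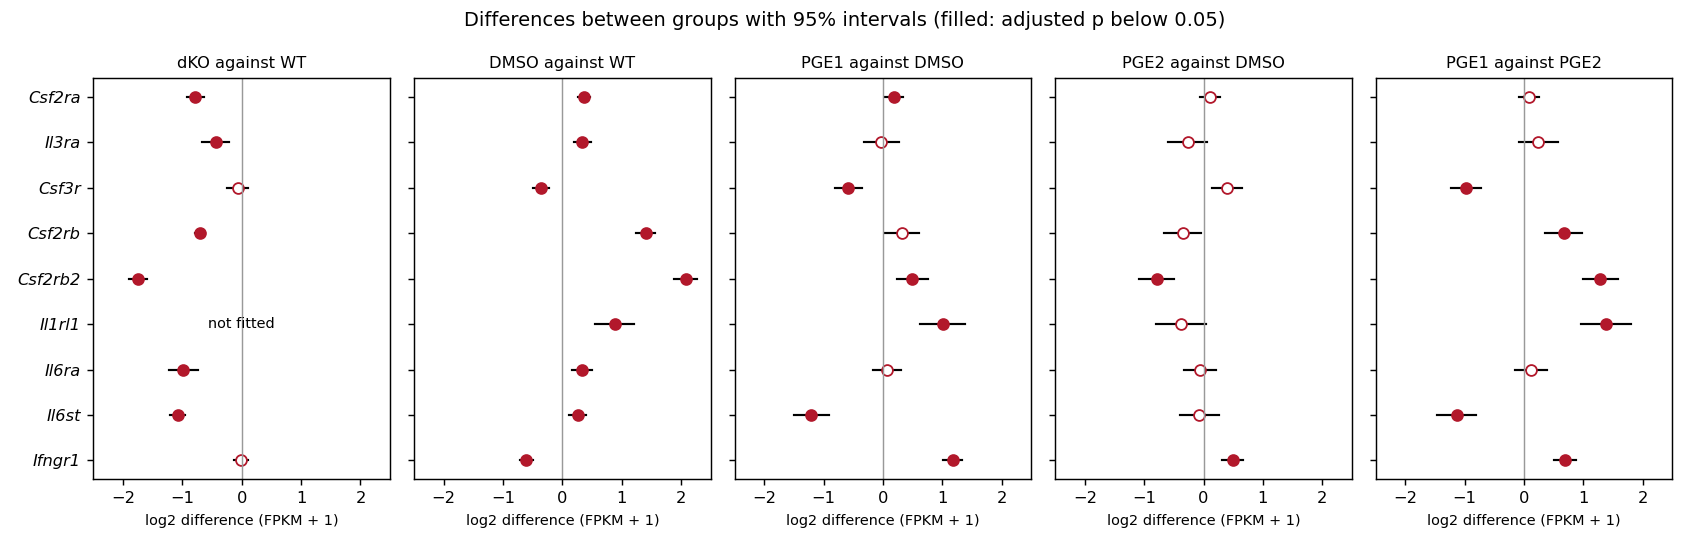
Log2 difference of FPKM + 1 (horizontal axis) for each receptor chain in 5 comparisons of groups, with 95% intervals as lines and filled points where the adjusted p is below 0.05. Csf2rb2 lies at -1.74 in dKO against WT, 2.08 in DMSO against WT and 1.29 in PGE1 against PGE2, while PGE2 against DMSO has 2 filled points.

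Ratios within a library show how the chains of a receptor moved against each other, and are given as levels without a test. Csf2rb2 made up 21.4% ± 1.09 (SD, n = 3) of the beta chain transcripts in WT, 10.3% ± 0.396 in dKO, 31.0% ± 0.758 in DMSO, 33.8% ± 0.751 with PGE1 and 24.8% ± 0.689 (n = 2) with PGE2. No 2 groups overlapped in this share. It carries the uncertainty of the shared reads described above. Beta chains together stood at 1.37 ± 0.0781 times the level of Csf2ra in WT and 1.27 ± 0.119 in dKO, which overlapped. The ratio was 3.24 ± 0.436 in DMSO, 3.72 ± 0.775 with PGE1 and 2.14 ± 0.0852 with PGE2. DMSO (2.75 to 3.58) and PGE1 (3.09 to 4.59) overlapped as well.

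The ratio of Il6st to Il6ra separated PGE1 from the rest. It was 0.243 ± 0.0347 with PGE1, and every other library lay between 0.575 and 0.797. Within that range fell WT (0.732 ± 0.0272), DMSO (0.701 ± 0.0412), PGE2 (0.690 ± 0.00805) and dKO (0.651 ± 0.126). The dKO range overlapped that of WT. Ifngr1 stood at 4.79 ± 0.276 times its partner chain Ifngr2 in WT, 7.20 ± 0.398 in dKO, 2.003 ± 0.178 in DMSO, 3.81 ± 0.0803 with PGE1 and 3.17 ± 0.116 with PGE2, with no overlap between any groups. Ifngr2 itself was lower in dKO (10.4 against 15.8 FPKM, adjusted p = 0.00112) and higher with PGE1 than with DMSO (29.7 against 24.6, adjusted p = 0.00657). Il1rl1 stood below its partner Il1rap in all groups but PGE1, at ratios of 0.203 ± 0.0182 in WT, 0.208 ± 0.0627 in dKO, 0.562 ± 0.121 in DMSO and 0.369 ± 0.0629 with PGE2. With PGE1 the ratio was 2.10 ± 0.567, and all 3 libraries were above 1. Il1rap was not called in any of the 5 comparisons.

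**Figure D3:**
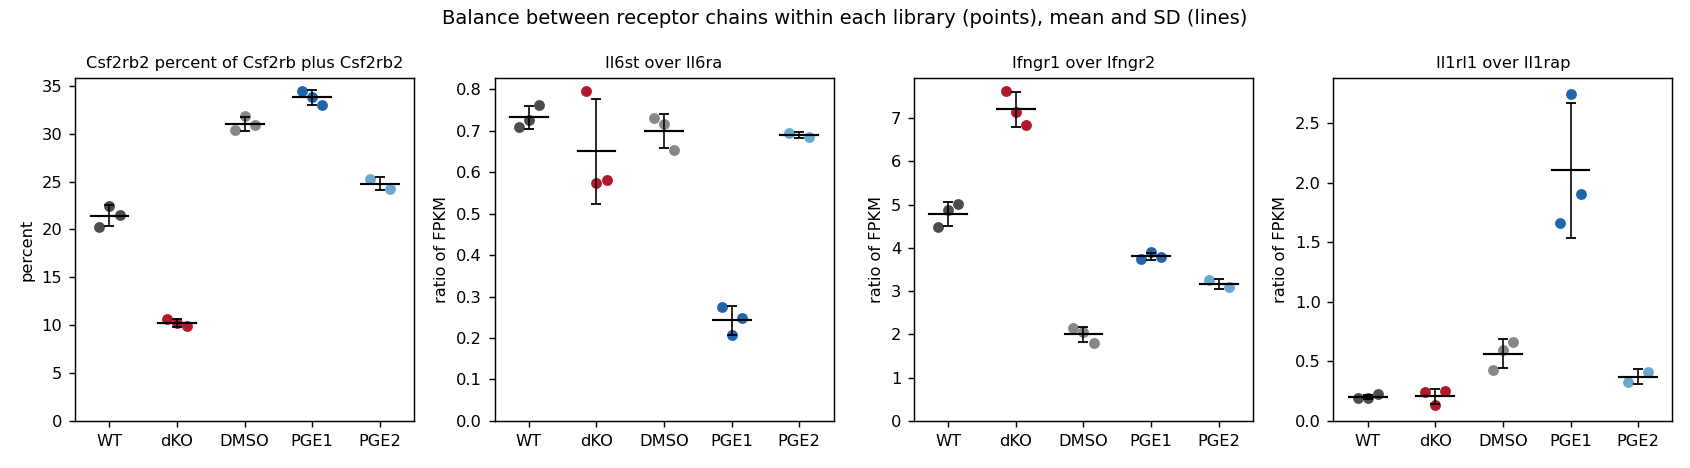
Balance of paired receptor chains in each library (points; mean and SD as lines): the share of Csf2rb2 among beta chain transcripts in percent, and the FPKM ratios of Il6st to Il6ra, Ifngr1 to Ifngr2 and Il1rl1 to Il1rap. PGE1 has the lowest Il6st to Il6ra ratio, 0.243, and the highest Il1rl1 to Il1rap ratio, 2.10.

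Most ligands of these receptors were at low levels, Osm being the exception. Of 10 ligand genes (Csf2, Csf3, Il3, Il5, Il6, Il11, Lif, Osm, Il33 and Ifng), 1 was tested in untreated cells and 3 in treated cells, and Il3 was at 0 in all 14 libraries. Osm, the oncostatin M gene, was at 12.1 FPKM in WT and 23.6 in DMSO (log2 difference 0.90, adjusted p = 2.31e-06), and fell to 16.2 with PGE1 (-0.52, adjusted p = 3.95e-04). Il6 was at 0.519 FPKM in WT, 2.74 in DMSO, 0.862 with PGE1 and 1.74 with PGE2, lower with PGE1 than with DMSO (adjusted p = 5.06e-04) and than with PGE2 (0.0151). Il33, the ligand of Il1rl1, was at 0.653 FPKM in WT, 0.00778 in dKO and 2.61 in DMSO. Against DMSO it fell to 0.0538 with PGE1 (adjusted p = 1.01e-05) and to 0.607 with PGE2 (0.00155), and PGE1 was below PGE2 (0.00455). Among the treated groups Il1rl1 was thus highest and Il33 lowest with PGE1. The other groups did not share this opposite movement. Both genes were higher in DMSO than in WT, and both had a lower mean with PGE2 than with DMSO, where Il1rl1 was not called. In dKO Il33 was at its lowest of all groups, while Il1rl1 overlapped WT.

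Genes that STAT signalling is known to raise were counted next. Of 16 feedback and target genes tested in dKO against WT, 7 were higher and 4 lower. Cish, a STAT5 target that dampens cytokine receptors, was at 23.8 FPKM in dKO and 17.2 in WT (log2 difference 0.45, adjusted p = 6.03e-04). Mcl1, a survival gene, was at 46.8 against 67.2 (-0.52, adjusted p = 1.13e-04), and Irf1, a transcription factor gene, at 7.53 against 10.3 (-0.41, adjusted p = 5.69e-04). In DMSO against WT 13 were higher and 3 lower, led by Socs1 (33.2 against 6.29 FPKM, adjusted p = 1.02e-07), Socs3 (36.6 against 10.1, adjusted p = 1.87e-07) and Cish (36.2 against 17.2, adjusted p = 1.96e-06).

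With PGE1 11 of the 16 were lower than with DMSO and 4 were higher, at a median log2 difference of -0.61 against 0.01 over all genes. Socs3, the feedback inhibitor that binds gp130, was at 6.13 FPKM against 36.6 (log2 difference -2.40, adjusted p = 1.59e-07). Cish was at 7.36 against 36.2 (-2.16, adjusted p = 7.86e-07). Socs1, which dampens interferon and JAK signalling, was at 3.63 against 33.2 (-2.90, adjusted p = 9.97e-07). The 4 higher genes, named after their values were seen, were Bcl3, Cebpb, Irf1 and Mcl1. With PGE2 4 of the 16 were lower than with DMSO and 0 were higher by limma, also at an unadjusted p below 0.05. Socs3 was at 20.3 FPKM (-0.82, adjusted p = 6.80e-04), Socs1 at 19.4 (-0.75, adjusted p = 0.0176) and Il4ra, the IL-4 receptor chain, at 27.0 against 35.2 (-0.37, adjusted p = 0.00923). Between the compounds 11 were lower and 4 higher with PGE1, Socs3 by -1.58, Cish by -1.73 and Socs1 by -2.15 on the log2 scale. The share of the 16 called was 68.8% in dKO against WT, 100% in DMSO against WT and 93.8% in PGE1 against DMSO. Over all genes these shares were 40.9%, 56.6% and 49.1%. In PGE2 against DMSO 25% of the 16 were called (5.57% of all genes), and between the compounds 93.8% (53.9%).

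**Figure D4:**
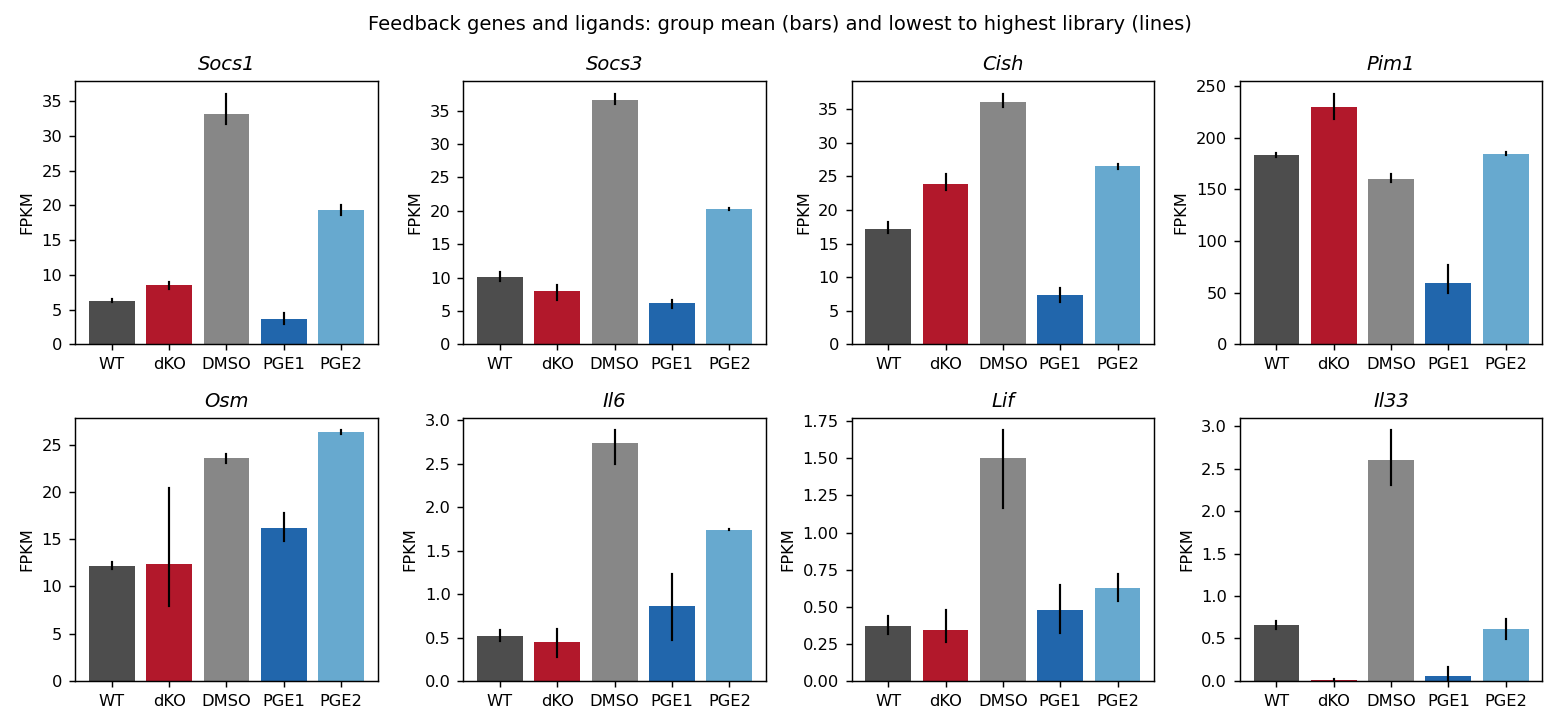
Group mean level (bars, FPKM from 0) and lowest to highest library (lines) of 4 feedback or target genes and 4 ligands in the 5 groups. Socs1, Socs3 and Cish are highest with DMSO (33.2, 36.6 and 36.2 FPKM) and lowest with PGE1 among the treated groups (3.63, 6.13 and 7.36), with PGE2 in between.

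Other cytokine receptor chains gave the setting for the 9. In dKO against WT 20 of 27 tested were lower and 1 was higher, at a median log2 difference of -0.46. Il7r, the IL-7 receptor chain, was at 0.211 FPKM against 4.27 (adjusted p = 1.03e-06), Csf1r, the receptor of M-CSF, at 6.80 against 35.0 (adjusted p = 1.30e-06) and Flt3 at 1.83 against 5.50 (adjusted p = 5.79e-05). The 1 higher chain, named after its value was seen, was the IL-1 decoy receptor Il1r2 (4.10 against 1.66 FPKM, adjusted p = 0.00805). In DMSO against WT 19 of 28 were higher and 3 lower; Il7r, Il4ra and Csf1r had the smallest p and rose by 1.04, 0.76 and 0.44 on the log2 scale.

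With PGE1 15 of 29 were higher than with DMSO and 5 lower. Il1r2 was at 19.8 FPKM against 4.69 (log2 difference 1.87, adjusted p = 6.14e-06) and Il2rb, a signalling chain of the IL-2 and IL-15 receptors, at 7.46 against 0.684 (2.33, adjusted p = 9.80e-06). Il4ra was at 21.3 against 35.2 (-0.70, adjusted p = 1.96e-05). With PGE2 0 of 29 were higher by limma (1 at an unadjusted p below 0.05) and 5 were lower, among them Il2ra (0.979 against 3.19 FPKM, adjusted p = 0.00139) and Il1r1 (2.59 against 5.92, adjusted p = 0.00851). Between PGE1 and PGE2 18 were higher and 4 lower, with Il17ra at 25.5 against 15.9 FPKM (adjusted p = 5.11e-05). The share of these chains called was 77.8% in dKO against WT, 78.6% in DMSO against WT and 69% in PGE1 against DMSO. Over all genes these shares were 40.9%, 56.6% and 49.1%. In PGE2 against DMSO 17.2% were called (5.57% of all genes), and between PGE1 and PGE2 75.9% (53.9%).

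The share of 24 signal transducers called lay near that of all genes in 3 comparisons: 45.8% in dKO against WT (40.9% of all genes), 50% in DMSO against WT (56.6%) and 45.8% in PGE1 against DMSO (49.1%). In dKO 10 were lower and 1 higher. Lyn, a Src-family kinase, was at 15.5 FPKM against 22.0 (adjusted p = 6.47e-05), Inpp5d, the phosphatase SHIP1, at 24.1 against 30.4 (adjusted p = 4.05e-04) and Jak2, the kinase that the beta chains use, at 12.3 against 16.1 (adjusted p = 4.38e-04). In DMSO against WT 10 were higher and 2 lower, with Lyn at 28.8 against 22.0 FPKM (adjusted p = 1.17e-04) and Myd88, the adaptor that Il1rl1 uses, at 29.9 against 23.4 (adjusted p = 3.05e-04). With PGE1 10 were higher than with DMSO and 1 lower. Stat3, the main STAT of gp130, was at 47.0 FPKM against 26.3 (log2 difference 0.81, adjusted p = 8.65e-06), Shc1, an adaptor, at 24.7 against 16.2 (0.58, adjusted p = 8.03e-05) and Inpp5d at 63.4 against 39.6 (0.67, adjusted p = 9.67e-05). With PGE2 0 of 24 passed the limma test, and 2 had an unadjusted p below 0.05. Between PGE1 and PGE2 13 were higher and 3 lower (66.7%, against 53.9% of all genes), Stat3 again at 47.0 against 26.5 FPKM (adjusted p = 2.01e-05).

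The genes most like the 3 most variable chains were found by Pearson's r of log2(FPKM + 1) over the 14 libraries. These libraries share groups and depth, so the values only describe them. For Csf2rb2 they were the long non-coding RNA Neat1 (r = 0.995), Arhgap30 (0.995) and Fam129b (0.994). For Csf2rb they were Arhgap30 (0.994), Dnm2 (0.991) and Zswim8 (0.991), and for Il1rl1 Syk (0.988), Gab2 (0.987) and Cpt1a (0.987). Neat1 ran from 0.623 FPKM in dKO through 4.10 in WT, 14.4 with PGE2 and 28.9 in DMSO to 37.3 with PGE1, and Cpt1a from 15.2 in dKO to 49.0 with PGE1.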

How the data were processed

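RNA-seq of total RNA was deposited as 1 FPKM table per library for 14 libraries. The authors made the FPKM values with CASAVA 1.8, TopHat and Cufflinks on the mouse build mm9, per the submitters' processing notes. The sources used here do not give strand, read length or annotation. In each of 19057 genes with reads the deposited FPKM values were whole multiples of 1 read's worth (100% of genes, within 0.001 read), which gave the read counts and library totals quoted. Read counts speak to counting error alone. Titles of the samples defined the groups. Two-sided limma 3.58.1 tests (R 4.3.3, eBayes with trend) were run on the deposited values as log2(FPKM + 1), not on the recovered reads. The pseudocount was 1, and genes averaging 1 FPKM or more in the libraries fitted were tested. The 6 untreated libraries, the 8 treated libraries, and DMSO with WT were 3 separate fits. P-values were adjusted by Benjamini-Hochberg over all genes tested, with a threshold of 0.05. The log2 scale understates the change of low genes. Folds are ratios of mean FPKM. The script was tested on simulated data. Whether replicates came from separate mice or cultures is not in the labels, and p-values therefore reflect the spread of these libraries alone, which may be technical. The members and gene lists were chosen with earlier results of these data known. All 9 members and the partner chains Ifngr2 and Il1rap are named, with the 3 genes of smallest p per pathway list and comparison and, for the 3 most variable members, the 3 genes of highest correlation with a mean of at least 5 FPKM, leaving out clone-type symbols. One item that this rule selects is not reported here. Alternatives were another pseudocount (0.1), no minimum or 5 FPKM, other scalings, 1 fit of all 14 libraries, the replicate number as a block and leaving out single libraries. Leaving out both libraries that stood apart was chosen after seeing the data. Other tools were Python 3.11.15, pandas 2.3.3, numpy 2.4.6, matplotlib 3.10.9 and scipy 1.17.1.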

Additional observations from a re-analysis of the deposited data

How the results depend on the processing

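Of the fitted log2 differences of the members under all alternatives, 620 kept their side of the threshold and their direction where called, 13 newly passed it and 15 no longer passed. No called value changed sign. Against DMSO, PGE2 gave the counts that depended most on the setting. All genes called went from 626 to 269 with the replicate block, 1207 with all 14 libraries in 1 fit and 1763 without DMSO replicate 1 and PGE1 replicate 2, and ranged from 125 to 1218 when single libraries were left out (125 without PGE2 replicate 2, 156 without PGE2 replicate 1, 236 without DMSO replicate 3, 240 without DMSO replicate 2, 1218 without PGE1 replicate 2). Members called higher went from 1 to 0 with the replicate block, which put Ifngr1 at an adjusted p of 0.0504, and to 2 with all 14 libraries, and ranged from 0 to 2 when single libraries were left out. Members called lower ranged from 0 to 2 in the same way and came to 3 without DMSO replicate 1 and PGE1 replicate 2. For PGE1 against DMSO the replicate block brought Csf2rb past the threshold (0.0204) and took Csf2ra below it (0.0708), as did testing without a minimum level (0.0517). The causes were not tested. Same-numbered libraries deviated together by correlations from -0.243 to 0.252. The highest correlation of any pair, 0.399, joined PGE1 replicate 2 and DMSO replicate 1. With groups of 2 or 3 libraries such correlations cannot settle whether the numbers pair the samples. With 2 PGE2 libraries, leaving 1 out assumes that the other varies like the remaining groups. Reads per library limited Il1rl1 most, at 50 to 358.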

Other observations

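Chains outside the 9 members, picked after their values were seen, showed wide ranges over the groups. Il2rb was at 0.0266 FPKM in dKO, 1.03 in WT, 0.684 in DMSO, 0.864 with PGE2 and 7.46 with PGE1, where the lowest library had 5.87. Il7r was at 0.211 FPKM in dKO and between 4.12 and 10.1 in every other library. Il13ra1, a chain of the IL-4 and IL-13 receptors, was at 0.756 FPKM with PGE1 against 2.90 in DMSO (limma adjusted p = 4.96e-05), as Il4ra was also lower. Cd14, a co-receptor for bacterial lipopolysaccharide, was at 297 FPKM with PGE1, 70.9 with PGE2 and 46.6 in DMSO (PGE1 against DMSO, limma adjusted p = 4.55e-07), while 9 other monocyte and macrophage markers were lower.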
